A study of Mus musculus with 12 samples.

Results

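The genes described here are 58 protein-coding mouse genes of mitosis and chromosome segregation, taken by symbol from a count table of 23282 rows for splenic B cells. The list groups genes by what they do in cell division and uses no cut-off on measured values, but it was drawn up with earlier results of these data known. All 58 had a row, and all 58 were among the 11857 genes that passed the filter on low counts. Before any treatment the filter would have kept nearly all of them. Its level was 0.953 counts per 1e+06 counts of the library, without scaling. In every untreated library 57 genes reached it, and Kif18b did so in 2 of 3. Levels below are in CPM, the counts of a gene per 1e+06 counts of the library, scaled with TMM factors.

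A cell enters mitosis when cyclin-bound Cdk1 is switched on, condenses its chromosomes, attaches them to a spindle through the kinetochores, and separates the sister chromatids once a checkpoint is satisfied, after which the daughter cells are cut apart. Many of the genes for these steps are transcribed in G2 and M phase and are kept low in resting cells, where the DREAM complex holds them down through a promoter element called CHR. Most B cells of a mouse spleen are resting, and ligands of the receptor TLR9 are known to drive them into division.

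Gene expression was measured by sequencing the 3' ends of messenger RNA (Lexogen QuantSeq) in 12 libraries of splenic B cells from wild-type C57BL/6 mice, which the series text calls lupus-prone, aged 7 weeks. The 3 control libraries had no listed treatment, and no vehicle is named for them. The 3 ODN libraries came from mice given 50 µg of the class B CpG-ODN 1826, a synthetic TLR9 ligand, into the peritoneum on days 1 and 3. The 3 IM156 libraries came from mice given 30 mg/kg of IM156, an inhibitor of mitochondrial respiration, by the same route on days 0 and 2, and the 3 ODN+IM156 libraries had both agents. All spleens were taken on day 4. The labels call the 3 samples of a condition experimental replicates without saying whether they are separate animals, so the p-values measure the spread between these samples, which may be partly technical.

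Libraries held 9650775 to 11532525 counts. Cd79a and Cd79b, which encode the signalling chains of the B-cell receptor, stood at 606.6 to 743 and at 1287 to 1663 CPM over the 12 libraries, so these markers of the labelled cell type were present in each. Other B-cell genes varied: Fcer2a, the low-affinity IgE receptor, was called lower with ODN (log2 fold change -0.59, edgeR adjusted p = 0.00104), with 294.1 to 411.9 CPM in control and 212.4 to 235.7 in ODN. The ODN libraries each stood apart in genes outside the list. Cr2, the complement receptor of mature B cells, stood at 1215 CPM in ODN replicate 1 and at 2217 to 2883 in the other libraries. Xist, whose RNA coats the silenced X of female cells, had a single count (1) in ODN replicate 3 and lay between 924 and 1320 CPM in each of the 11 others, and in ODN replicate 2 the ribosomal RNA row took 1.46% of counts, against 4.78% to 9.63% elsewhere.

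With ODN, genes of all 9 roles described here rose. Of the 58 genes, 56 were called higher than in control by edgeR's quasi-likelihood test at an adjusted p below 0.05, where 7.34% of all genes tested were called higher, and none was called lower. The median log2 fold change of the 58 was 1.84, beside -0.005 over all genes tested, and single values ran from 0.49 for Smc4 to 2.69 for Esco2. In 53 genes the lowest ODN library lay above the highest control library, a separation seen in 13.2% of all genes. Anln and Cdca5 missed the threshold, with edgeR adjusted p of 0.0584 and 0.078. In bulk RNA such as this, more dividing cells and more RNA per dividing cell cannot be told apart.

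The ODN libraries differed widely among themselves. The summed level of the 58 genes was 6385 CPM in ODN replicate 1, 3169 in replicate 2 and 2235 in replicate 3, against 1510, 1330 and 1693 in control. Replicate 1 was the highest ODN library for all 58 genes, and the order of replicate 1, then 2, then 3 held in 57 of them, Kif20b being the exception. The median coefficient of variation of the 58 genes was 66.7% within ODN, against 29.7% in control, 20.1% in IM156 and 22.9% in ODN+IM156, while that over all genes tested was between 9.67% and 13.9% in the 4 groups. Without ODN replicate 1 the median log2 fold change against control was 1.17 and 47 genes were called, the lost calls being those of Foxm1, Mybl2, Cdc20, Espl1, Incenp, Cdca8, Cenpm, Kif20b and Smc4. Without control replicate 1 the count was 50, and without control replicate 2 it was 49. Without ODN replicate 3, the library nearly without Xist RNA, the median was 2.15 and all 58 were called. Of all genes tested, 4.88% were called higher without ODN replicate 1 and 9.45% without ODN replicate 3. The share was 6.23% without control replicate 1 and 5.19% without control replicate 2. A fit robust to outlying spreads called 36, where 6.87% of all genes were called higher. Among the calls it lost were those of Esco2, Nusap1, Prc1, Espl1, Incenp, Cdca8 and Kif20b.

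**Figure D1:**
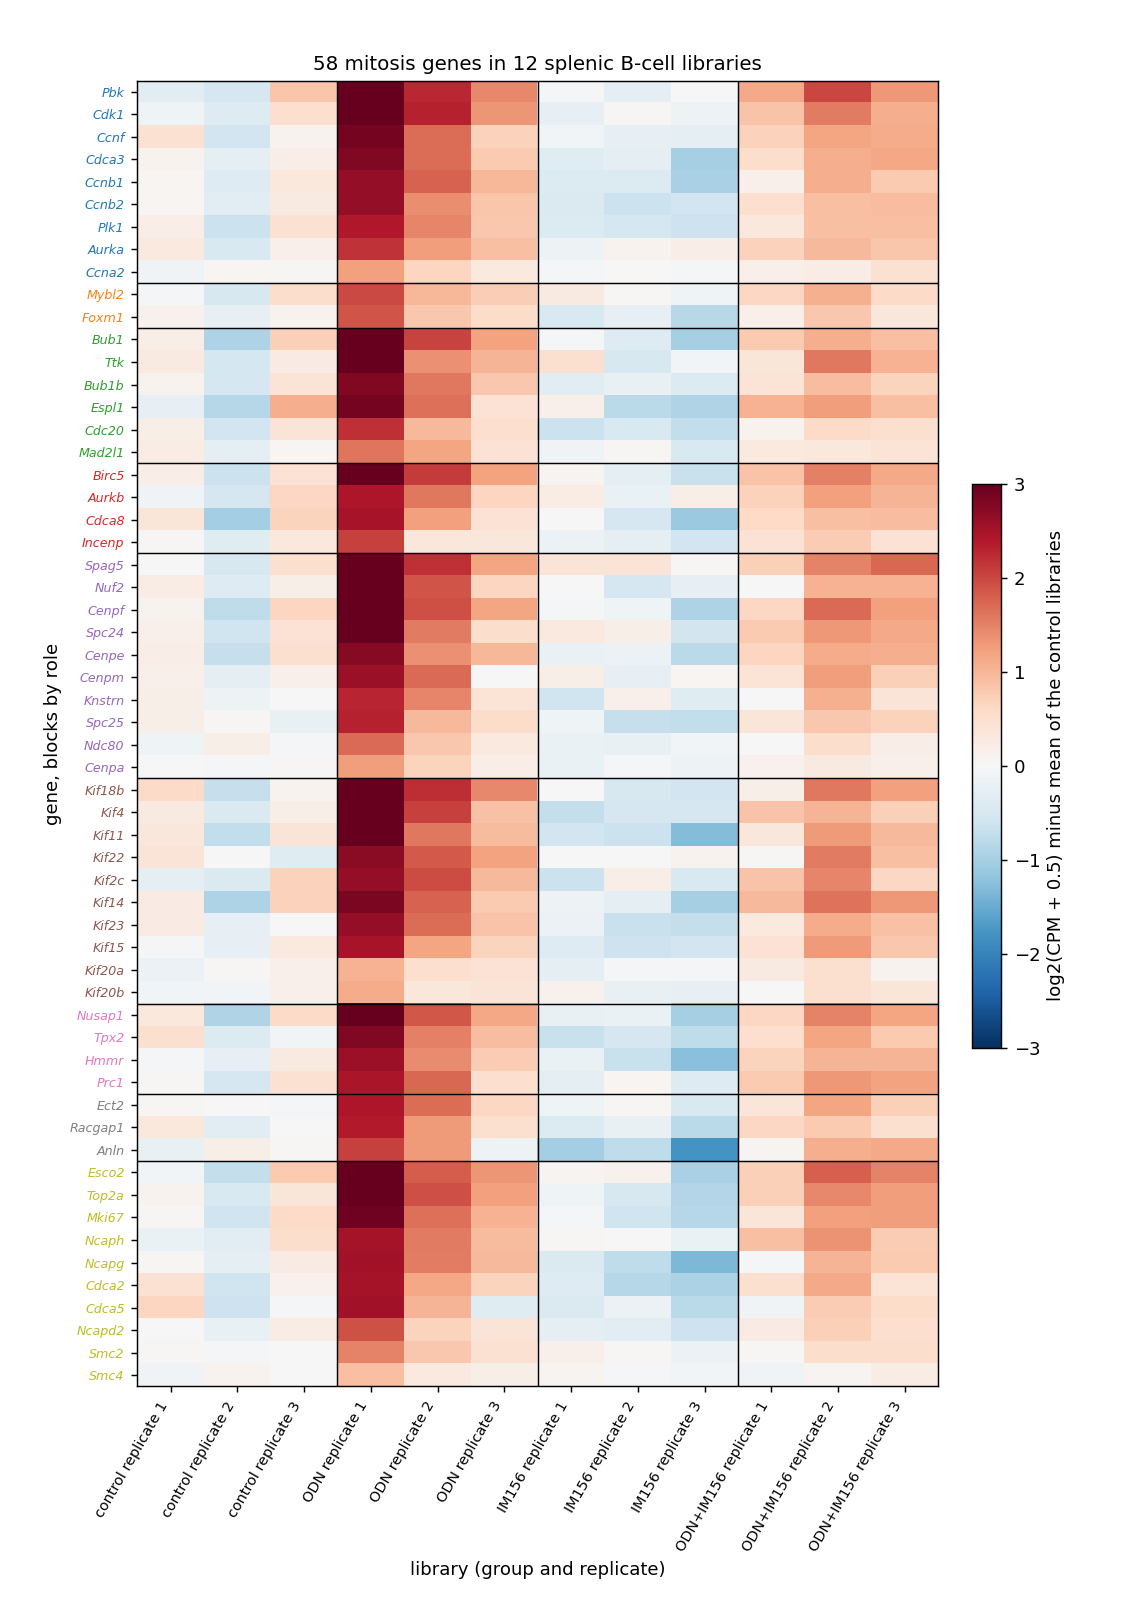
Level of each gene (rows, coloured and blocked by role, in the order of the text) in each library (columns, grouped by treatment), as log2(CPM + 0.5) minus the mean of the control libraries, with values past 3 drawn at 3. ODN replicate 1 is the darkest column for all 58 genes, and the 3 ODN+IM156 columns lie near the column of ODN replicate 3.

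Markers of other cell types also differed between the libraries. The list of granulocyte progenitors and neutrophils, of which 11 of 12 genes had a row, summed to 85.5, 22.9 and 26.1 CPM in ODN replicates 1 to 3, against 5.42 to 8.65 in control. With IM156 alone it was 2.89 to 6.06, and with both agents 17.7 to 23.8. S100a8 and S100a9, genes of mature neutrophils, carried most of it, and both were called higher with ODN. Among the genes that define dividing granulocyte progenitors, Ctsg was at 0 in all 12 libraries and Elane at 0 in every control and ODN library, and Mpo and Prtn3 reached 0.515 and 0.798 CPM at most. The 16 erythroid genes moved the other way, from 693 to 888 CPM in control down to 123 to 269 in ODN, and 5 of the 10 tested were called lower with ODN. Under IM156 alone they held 102 to 580 CPM, and under both agents 78.0 to 151. The 9 platelet genes went from 31.8 to 48.3 CPM in control to 118 to 198 in ODN and 110 to 158 in ODN+IM156, with 48.7 to 50.6 in IM156, and 6 of the 8 tested were called higher with ODN. The 8 NK-cell genes went from 1.63 to 2.91 CPM in control to 11.7 to 19.1 in ODN and 8.69 to 11.2 in ODN+IM156, with 1.28 to 2.71 in IM156, and 2 of the 3 tested were called higher with ODN. Germinal centre B cells and plasmablasts are the B-cell states in which division is common. The 8 germinal centre genes held 118 to 155 CPM in control libraries and 91.1 to 103 in ODN libraries, with 92.5 to 108 under IM156 and 97.1 to 121 under both agents, and with ODN none was called higher and 1 lower. The 8 genes of plasmablasts and plasma cells summed to 724 to 869 CPM in control and 805 to 968 in ODN, with none called. Single genes carried most of both sums. Mzb1 stood at 396 to 482 CPM in control and 503 to 554 in ODN, and Bcl6 of the germinal centre list at 82.9 to 95.3 and 64.9 to 75.1. Sdc1 and Prdm1 held 3.09 to 7.94 CPM in these libraries, so the sums say little about the number of such cells. Of the 9 monocyte and macrophage genes 3 were called higher with ODN. Their sum was 36.02 to 67.2 CPM in control, 46.98 to 82.95 with ODN, 39.15 to 73.6 with IM156 and highest with both agents, at 66.8 to 113.6. The 9 T-cell genes summed to 23.5 to 31.85 CPM in control, 32.39 to 39.5 with ODN, 27.86 to 30.62 with IM156 and 33.29 to 45.46 with both agents, above every control in all libraries that had ODN, with none called. The 6 stem and progenitor genes had none called either. The part of other cells in the levels of the mitosis genes was not tested.

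**Figure D2:**
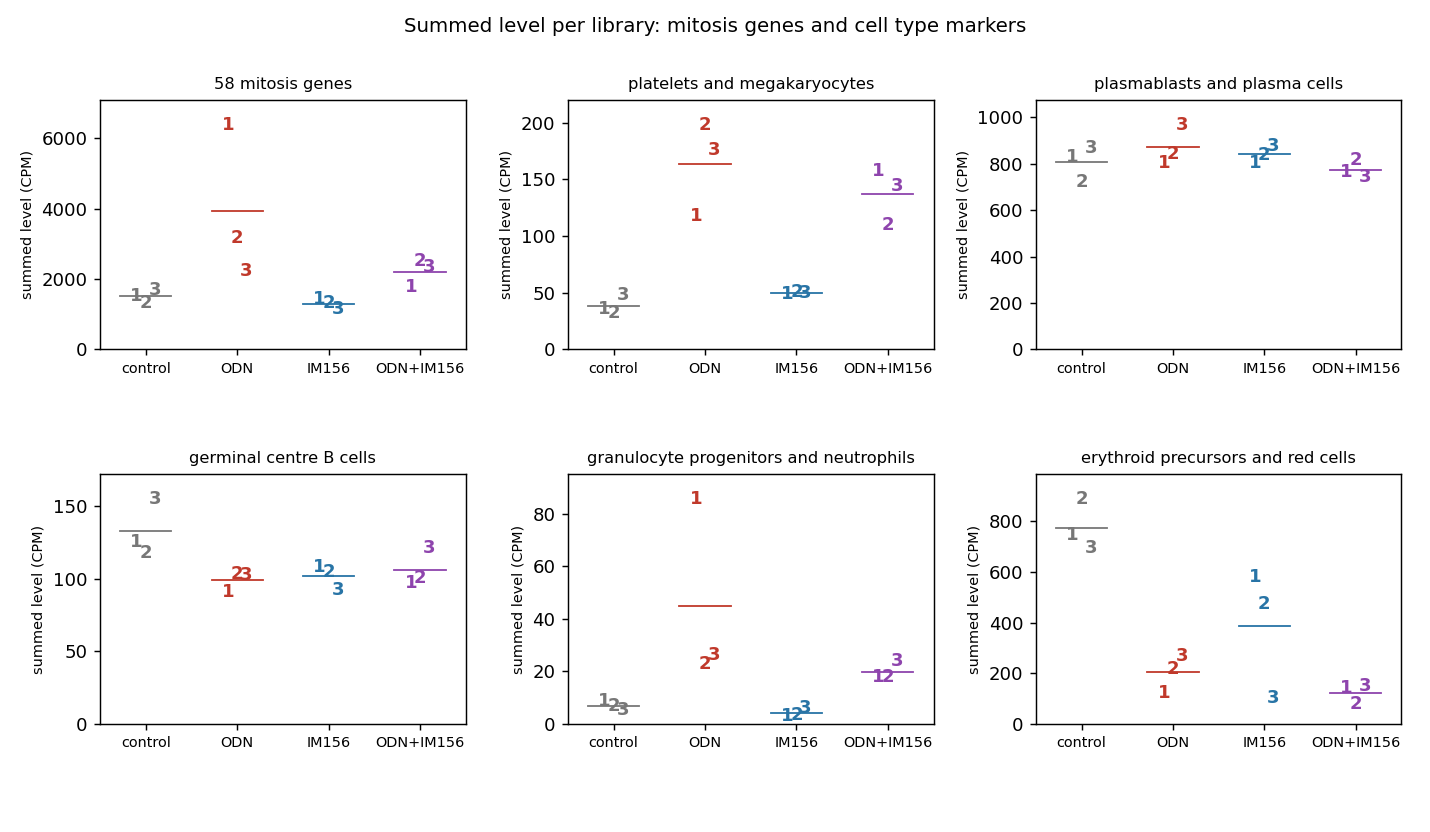
Summed level in CPM (vertical axis, from 0) of the 58 mitosis genes and of 5 marker lists, by treatment group; each digit is 1 library, labelled with its replicate number, and the line is the group mean. ODN replicate 1 is highest both in the mitosis genes (6385 CPM) and in the neutrophil list (85.5 CPM). In each other list drawn it is the lowest of the ODN libraries.

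Cyclins and kinases of mitotic entry are described first, together with Cdca3, which encodes neither. All 9 were called higher with ODN, with a median log2 fold change of 1.98. Pbk (chr14:65805837-65817822 on GRCm38), a kinase of mitotic cells, stood at 1.69, 1.45 and 4.45 CPM in control replicates 1 to 3, at 29.5, 12.7 and 6.98 in ODN, at 2.19, 1.78 and 2.30 in IM156, and at 5.57, 10.7 and 6.29 in ODN+IM156. Every ODN and every ODN+IM156 library lay above every control, and ODN replicate 3 lay within the ODN+IM156 range. The log2 fold change of ODN against control was 2.69 ± 0.46 (SE of the fit, edgeR adjusted p = 0.000938), the largest of this role. Cdk1 (chr10:69335146-69352938), the kinase that drives entry into mitosis, had the lowest adjusted p of the 58 genes, 8.5e-05 by edgeR, and stood at 13.0, 10.8 and 20.3 CPM in control and 119, 71.9 and 36.5 in ODN. Its partners Ccnb1 and Ccnb2, the B-type cyclins, had log2 fold changes of 1.98 ± 0.32 and 1.85 ± 0.32. Ccna2 (chr3:36564865-36572150), the cyclin of S phase and G2, changed least, from 42.5, 48.2 and 47.5 CPM in control to 108, 71.7 and 56.4 in ODN, with 44.9, 45.9 and 44.3 in IM156 and 51.5, 53.9 and 63.5 in ODN+IM156. Its groups did not overlap between ODN and control, and the IM156 libraries lay inside the control range. Relative to control, the ODN log2 fold change was 0.77 ± 0.16 (edgeR adjusted p = 0.00408).

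The 3' end of Ccna2 overlaps that of Exosc9, a gene of the RNA exosome on the opposite strand, and the strand rule of the counting is not given in the sources used here. Exosc9 stood at 39.3 to 48.5 CPM in control and 43.4 to 47.9 in ODN, and the counts of Ccna2 were 0.941 to 2.25 times those of Exosc9 over the 12 libraries. Reads of this pair where the genes overlap cannot be assigned to either, nor can those of Kif20a with Cdc23, Cdc20 with Elovl1, Prc1 with Rccd1 and Ncapg with Lcorl, which overlap in the same way within 1000 bases of the end of the mitosis gene. Kif20a, a kinesin of the central spindle, and Cdc23, a subunit of the anaphase-promoting complex, had nearly the same values in each library. Their totals were 4870 and 4964 counts, the ratio in a single library was 0.913 to 1.05, and their log2 fold changes with ODN were 0.69 and 0.61. The value for Kif20a is therefore reported as uncertain. For Prc1 the partner was scarce, with 267 counts in all libraries against 3059. The other partners held more counts than the mitosis gene, Elovl1 7919 against 2801 of Cdc20 and Lcorl 4520 against 2753 of Ncapg. With ODN, Elovl1 had a log2 fold change of 0.46 (edgeR adjusted p = 0.0695), beside 1.37 for Cdc20. Lcorl was called higher at 0.53 (edgeR adjusted p = 0.0276), beside 1.83 for Ncapg. The values for Cdc20 and Ncapg are therefore uncertain too, as are those for Ccna2, whose partner Exosc9 held 5620 counts against 7143. Near their ends Foxm1 also overlaps Tex52 and Gm44596 on its own strand, and Kif18b the lincRNA Gm26668 on the opposite strand, and their values carry the same limit.

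Both transcription factors of the G2/M programme rose with ODN. Mybl2 (chr2:163054687-163084688), which encodes B-MYB, the activator that replaces the DREAM repressor at these promoters, stood at 2.38, 1.63 and 3.78 CPM in control, 11.2, 5.41 and 4.50 in ODN, 3.09, 2.52 and 2.22 in IM156, and 4.06, 5.71 and 3.90 in ODN+IM156. ODN lay above control in all libraries, and ODN replicates 2 and 3 fell inside the ODN+IM156 range. ODN changed it by a log2 fold of 1.43 ± 0.38 (edgeR adjusted p = 0.0181). Foxm1 (chr6:128362967-128376146), the forkhead factor of the same programme, stood at 9.04, 6.80 and 8.81 CPM in control, 31.6, 14.7 and 12.2 in ODN, 5.78, 6.82 and 4.35 in IM156, and 9.15, 14.6 and 10.4 in ODN+IM156. The lowest ODN+IM156 library was just above the highest control. On the log2 scale the ODN fold change was 1.24 ± 0.29 (edgeR adjusted p = 0.00932). Neither call held without ODN replicate 1 or without control replicate 2. That of Mybl2 was also lost without control replicate 1 and in a fit of the 2 groups alone.

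The spindle checkpoint holds anaphase until all kinetochores are attached, and Cdc20 and the protease separase (Espl1) then carry it out. All 6 genes of this role were called higher with ODN, with a median log2 fold change of 1.92. Bub1 (chr2:127801122-127831865), the checkpoint kinase, stood at 3.78, 1.45 and 5.62 CPM in control, 34.4, 14.5 and 8.13 in ODN, 3.09, 2.34 and 1.36 in IM156, and 5.85, 7.40 and 6.38 in ODN+IM156. Its log2 fold change with ODN was 2.39 ± 0.45 (edgeR adjusted p = 0.00164). Mad2l1 (chr6:66535390-66547220), whose protein MAD2 binds and restrains CDC20, changed least of the 6, from 20.5, 14.2 and 18.2 CPM in control to 54.0, 40.2 and 23.9 in ODN, with 16.3, 17.8 and 12.6 in IM156 and 21.3, 21.9 and 23.3 in ODN+IM156. Its log2 fold change was 1.16 ± 0.22 (edgeR adjusted p = 0.00164). These were the 2 genes of the 58 whose ODN libraries all lay above all ODN+IM156 libraries. Espl1 had the largest standard error of the called genes (1.90 ± 0.55). It stood at 1.89, 1.09 and 5.62 CPM in control and 20.4, 8.42 and 3.35 in ODN, replicate 3 of which lay below control replicate 3. Its call was lost when any 1 of ODN replicate 1, control replicate 1 and control replicate 2 was left out. DESeq2, the robust fit, a fit of the 2 groups alone and a fit with a replicate block did not call it either.

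The chromosomal passenger complex corrects faulty attachments of chromosomes to the spindle and later marks the site of cleavage. All 4 of its genes were called higher with ODN, with a median log2 fold change of 1.61. Birc5 (chr11:117849251-117855743), which encodes survivin, stood at 24.2, 13.3 and 28.8 CPM in control, 192, 92.5 and 49.4 in ODN, 22.2, 17.4 and 13.1 in IM156, and 38.7, 60.7 and 46.9 in ODN+IM156. ODN and ODN+IM156 were above control in all libraries. The log2 fold change with ODN was 2.33 ± 0.35 (edgeR adjusted p = 0.000326). Incenp (chr19:9872296-9899551), the scaffold of the complex, stood at 26.2, 20.1 and 32.4 CPM in control, 109, 32.98 and 32.8 in ODN, 22.7, 21.0 and 17.2 in IM156, and 35.1, 44.2 and 35.1 in ODN+IM156. Here ODN replicates 2 and 3 were barely above the highest control and below all ODN+IM156 libraries, and replicate 1 was far above both. The log2 fold change of 1.15 ± 0.32 (edgeR adjusted p = 0.0272) lost its call when any 1 of ODN replicate 1 and control replicates 1 and 2 was left out, and so did Cdca8, which encodes borealin. DESeq2, the robust fit and a fit of the 2 groups alone called neither Incenp nor Cdca8.

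Kinetochore genes build the plate on the centromere to which microtubules bind. All 10 were called higher with ODN, with a median log2 fold change of 1.83. Spag5 (chr11:78301529-78322457), which encodes astrin, a protein of spindles and attached kinetochores, stood at 5.07, 3.45 and 7.26 CPM in control, 49.9, 24.8 and 12.1 in ODN, 6.78, 6.73 and 5.20 in IM156, and 8.59, 15.1 and 17.8 in ODN+IM156. Both sets of ODN-treated libraries were above control throughout, and ODN replicate 3 lay within the ODN+IM156 range. Relative to control, the ODN log2 fold change was 2.46 ± 0.39 (edgeR adjusted p = 0.000498). Cenpa (chr5:30666777-30674830), the histone H3 variant that marks centromeres, stood at 39.4, 38.2 and 40.0 CPM in control, 94.8, 62.5 and 45.4 in ODN, 34.3, 37.96 and 35.1 in IM156, and 42.7, 47.2 and 43.5 in ODN+IM156. Its control libraries were the closest together of any of the 58 genes. ODN changed it by a log2 fold of 0.78 ± 0.17 (edgeR adjusted p = 0.00541). The 4 subunits of the NDC80 complex, the microtubule coupler, spanned most of the range of the role, with log2 fold changes of 2.40 ± 0.47 for Nuf2, 2.08 ± 0.44 for Spc24, 1.49 ± 0.31 for Spc25 and 1.06 ± 0.24 for Ndc80.

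Mitotic kinesins are the motors that move chromosomes and slide spindle fibres. All 10 were called higher with ODN, with a median log2 fold change of 2.00. Kif18b (chr11:102905529-102925124), a kinesin of microtubule plus ends, stood at 2.88, 0.907 and 1.94 CPM in control, 21.1, 9.96 and 5.64 in ODN, 1.79, 1.12 and 1.02 in IM156, and 2.08, 6.24 and 4.79 in ODN+IM156. Control replicate 2 held 10 counts of it and ODN replicate 1 held 203. On the log2 scale the ODN fold change was 2.68 ± 0.48 (edgeR adjusted p = 0.00128). Kif20b (chr19:34922361-34975745), a kinesin of late cytokinesis, changed least, with 64.2, 64.2 and 74.8 CPM in control, 146, 86.3 and 88.9 in ODN, 73.8, 57.6 and 57.1 in IM156, and 67.5, 94.7 and 87.4 in ODN+IM156. Its ODN replicates 2 and 3 lay within the ODN+IM156 range. The log2 fold change was 0.66 ± 0.17 (edgeR adjusted p = 0.0163), a call lost when any 1 of control replicates 1 and 2 and ODN replicate 1 was dropped. The robust fit and a fit of the 2 groups alone did not call Kif20b either.

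Genes of spindle assembly and of the midzone, where antiparallel fibres overlap in anaphase, were all 4 called higher with ODN, with a median log2 fold change of 1.89. Nusap1 (chr2:119618298-119651244), a bundler of microtubules near chromosomes, stood at 33.3, 14.2 and 40.4 CPM in control, 239, 98.2 and 60.0 in ODN, 22.7, 23.2 and 13.2 in IM156, and 41.1, 75.6 and 61.0 in ODN+IM156. Relative to control, the ODN log2 fold change was 2.18 ± 0.39 (edgeR adjusted p = 0.00129). Prc1 (chr7:80294450-80316259), which bundles the midzone, stood at 13.2, 8.98 and 17.8 CPM in control, 72.7, 43.5 and 18.5 in ODN, 10.7, 13.4 and 9.64 in IM156, and 22.4, 32.2 and 30.2 in ODN+IM156. Its ODN replicate 3 was just above the highest control and below every ODN+IM156 library. ODN changed it by a log2 fold of 1.75 ± 0.33 (edgeR adjusted p = 0.00172).

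Of the 3 cytokinesis genes, Ect2 and Racgap1 were called higher with ODN and Anln was not. Ect2 (chr3:27097222-27153878), the exchange factor that activates RhoA at the division plane, stood at 3.18, 3.08 and 3.00 CPM in control, 18.9, 11.0 and 4.97 in ODN, 2.79, 3.18 and 2.13 in IM156, and 4.15, 7.72 and 5.41 in ODN+IM156. Its log2 fold change with ODN was 1.90 ± 0.37 (edgeR adjusted p = 0.00239). Anln (chr9:22332012-22389188), which encodes the contractile ring scaffold anillin, stood at 2.29, 3.18 and 2.81 CPM in control, 12.8, 7.38 and 2.39 in ODN, 1.10, 1.40 and 0.426 in IM156, and 2.92, 6.34 and 6.65 in ODN+IM156. ODN replicate 3 lay within the control range, all IM156 libraries lay below control, and the lowest of them held 5 counts. On the log2 scale the ODN fold change was 1.44 ± 0.47.

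Genes of chromosome condensation, cohesion and packaging held both extremes of the 58. Of these 10 genes, 9 were called higher with ODN, with a median log2 fold change of 1.74. Esco2 (chr14:65819038-65833994), the acetyltransferase that establishes cohesion between sister chromatids, stood at 3.28, 1.91 and 6.39 CPM in control, 52.2, 13.4 and 9.47 in ODN, 3.69, 3.83 and 1.53 in IM156, and 6.04, 13.3 and 10.7 in ODN+IM156. The log2 fold change with ODN was 2.69 ± 0.53 (edgeR adjusted p = 0.00253). Smc4 (chr3:69004738-69034623), an ATPase core subunit of condensin, stood at 445, 514 and 478 CPM in control, 888, 590 and 542 in ODN, 507, 470 and 449 in IM156, and 448, 505 and 559 in ODN+IM156. Its ODN libraries were all above control, while ODN+IM156 replicates 1 and 2 lay inside the control range and replicate 3 above it. Relative to control, the ODN log2 fold change was 0.49 ± 0.14 (edgeR adjusted p = 0.0274), a call lost when any 1 of control replicates 1 and 3 and ODN replicate 1 was dropped. A fit of the 2 groups alone did not call Smc4 either. The other subunits of condensin I were called as well, from 0.99 ± 0.18 for Smc2 and 1.14 ± 0.26 for Ncapd2 to 1.83 ± 0.32 for Ncapg and 1.85 ± 0.34 for Ncaph. Cdca5, which encodes sororin, a protector of cohesin, stood at 4.17, 1.45 and 2.42 CPM in control and 16.6, 5.58 and 1.82 in ODN, so that ODN replicate 3 lay inside the control range, and its log2 fold change of 1.57 ± 0.55 was not called.

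**Figure D3:**
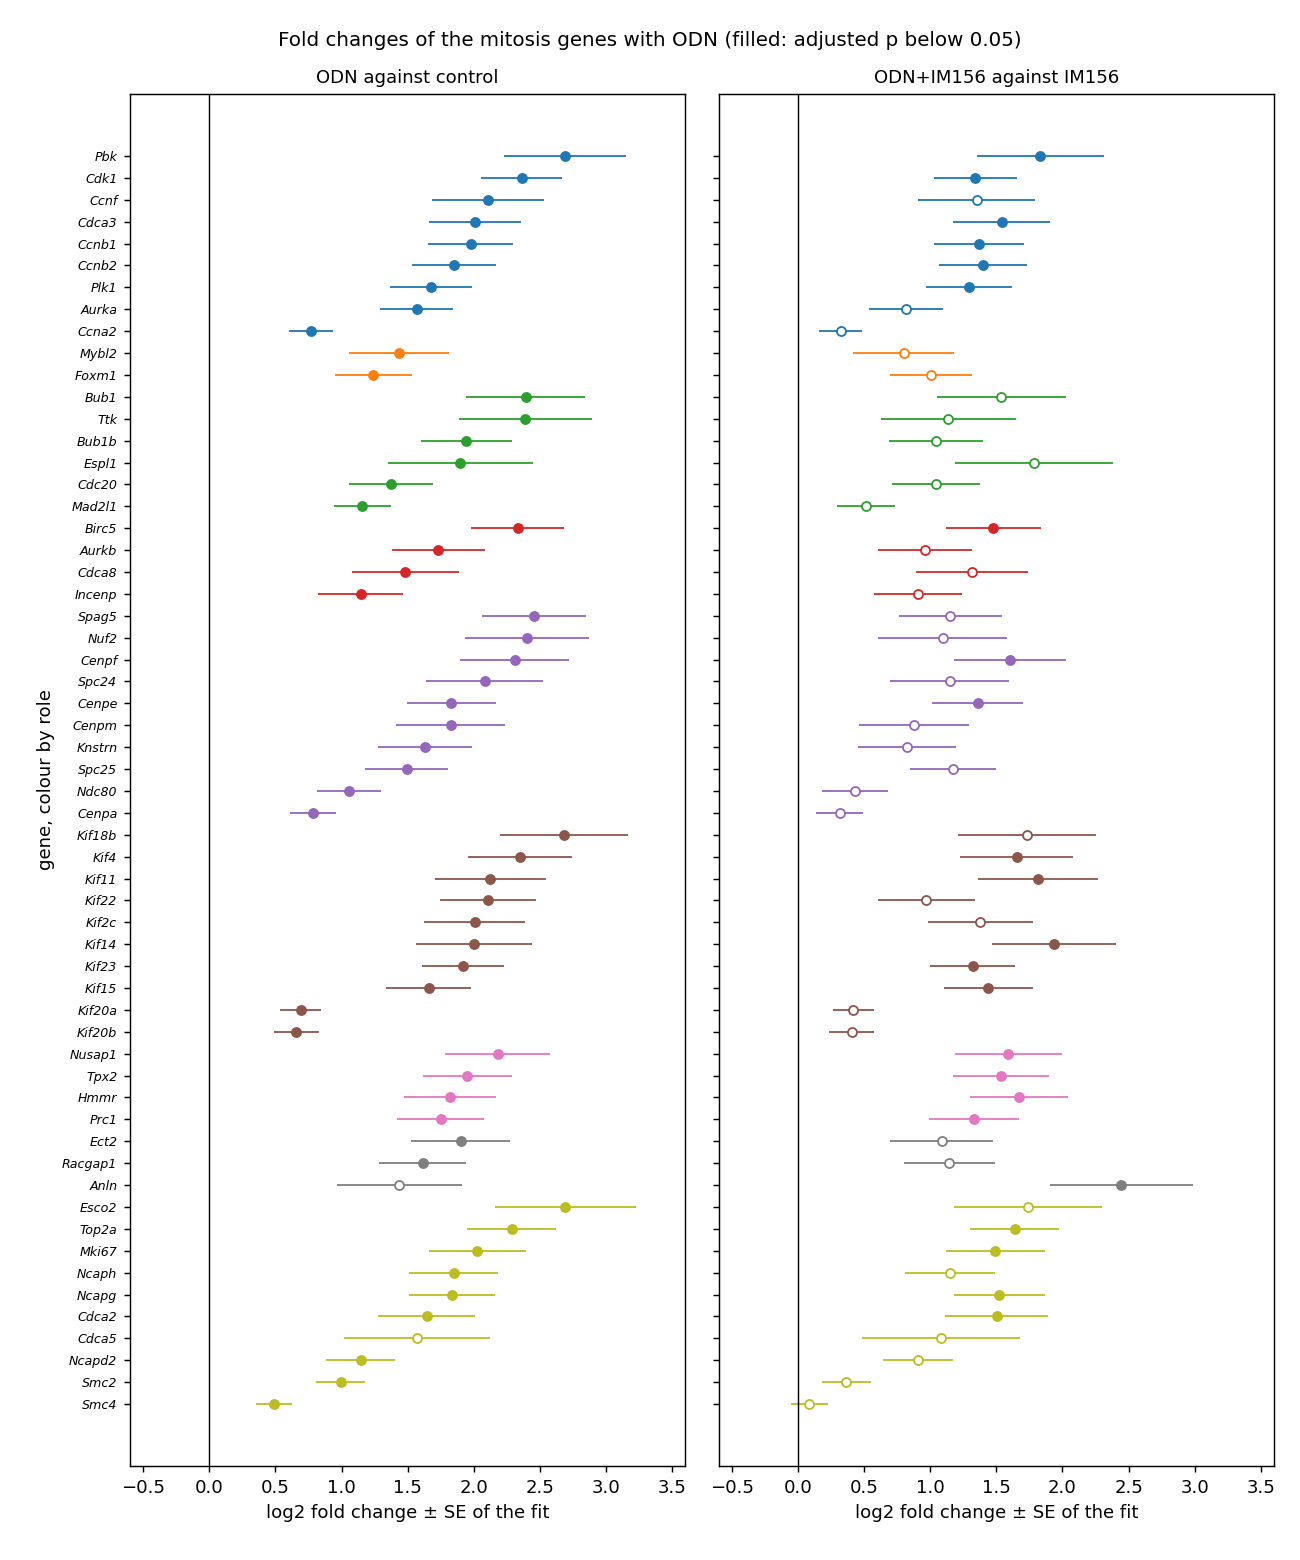
Log2 fold change with its standard error for each of the 58 genes (rows, coloured by role), for ODN against control on the left and ODN+IM156 against IM156 on the right; filled points had an edgeR adjusted p below 0.05. On the left 56 points are filled and all lie above 0; on the right 23 are filled.

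Other genes of the same machines were tested in the same fit. Of 102 tested genes in 9 further lists, 39 were called higher with ODN and 1 lower, with a median log2 fold change of 0.37, beside 7.34% of all genes called higher. These lists too were chosen with earlier results known. Other genes of the spindle, midbody and centrosome were called higher in 12 of 20 cases (median 1.40), with Melk, a mitotic kinase, at 2.64 ± 0.44, Depdc1a at 2.30 ± 0.55 and Stil, a centriole gene, at 2.24 ± 0.53. Other outer kinetochore and checkpoint genes were called in 10 of 15 cases (median 0.98), among them Ska1 at 2.00 ± 0.40, Kntc1 at 1.99 ± 0.43 and Ska3 at 1.501 ± 0.46, all of microtubule attachment or its surveillance. In the inner kinetochore and CENP-A loading 7 of 16 were called (median 0.65), led by Cenpp at 1.88 ± 0.43, Cenpn at 1.64 ± 0.32 and Cenpi at 1.62 ± 0.45.

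The remaining lists had fewer calls. Of the 14 core subunits of the anaphase-promoting complex, the ubiquitin ligase that ends mitosis, 2 were called (median 0.17): Cdc23, which shares its 3' end with Kif20a, at 0.61 ± 0.16 and Cdc27 at 0.34 ± 0.09. Of 5 genes that serve this ligase, 2 were called, its E2 enzyme Ube2c at 1.85 ± 0.38 and its inhibitor Fbxo5 at 0.96 ± 0.25. In the cohesin ring and its regulators 2 of 11 rose and 1 fell (median 0.02): the shugoshins Sgol1 at 1.79 ± 0.32 and Sgol2a at 1.59 ± 0.37, which protect centromeric cohesin, and Pds5a, a regulator of cohesin, at -0.35 ± 0.10. Condensin II had 2 of 3 called (median 0.59), Ncapg2 at 1.47 ± 0.31 and Ncapd3 at 0.59 ± 0.16. The switch of mitotic entry had 1 of 8, the Cdk1-inhibiting kinase Wee1 at 1.04 ± 0.27 (median 0.36), and the DREAM complex with the partners of B-MYB 1 of 10, Tfdp1 at 0.73 ± 0.20 (median 0.17).

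Promoters are shown because the CHR element and the CCAAT box are the promoter letters known for genes of G2 and M phase. The RefSeq promoter table (GRCm38.p6, 250 bases before and 50 after each start) held 47 of the 58 genes, without Incenp, Ccna2, Esco2, Smc4, Spc24, Aurkb, Foxm1, Kif20a, Tpx2, Cdca2 and Pbk. The letters TTTGAA, the common form of the CHR element, CCAAT, the box bound by the factor NF-Y, and TTTAAA, a CHR variant that reads the same on both strands, were searched on both strands. TTTGAA and TTTAAA matches cannot overlap each other, and a CCAAT match can share an end base with either. Kif18b and Spag5 are the genes with both TTTGAA and CCAAT among the 5 of largest fold change with ODN, and Cdk1, Ccnb1, Ccnb2, Plk1, Cdc20 and Cenpa were added for their roles in mitosis after their values were seen. Capitals mark the matches, also where they are read on the opposite strand (TTCAAA and ATTGG). Matches outside the stretches are not printed: TTTGAA also begins at base 31 in Plk1, at base 17 in Cenpa and at base -167 in Ccnb2, and CCAAT at base -208 in Cdk1.
Kif18b: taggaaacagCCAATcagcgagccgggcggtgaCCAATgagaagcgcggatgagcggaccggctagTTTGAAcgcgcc
Spag5: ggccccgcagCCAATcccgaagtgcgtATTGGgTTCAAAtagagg
Cdk1: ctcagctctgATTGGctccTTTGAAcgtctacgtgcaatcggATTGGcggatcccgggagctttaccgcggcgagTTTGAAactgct
Ccnb1: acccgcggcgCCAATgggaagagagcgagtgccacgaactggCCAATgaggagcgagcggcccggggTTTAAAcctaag
Ccnb2: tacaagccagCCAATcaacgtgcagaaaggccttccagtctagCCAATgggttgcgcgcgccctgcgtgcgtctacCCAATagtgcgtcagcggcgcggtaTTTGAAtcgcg
Plk1: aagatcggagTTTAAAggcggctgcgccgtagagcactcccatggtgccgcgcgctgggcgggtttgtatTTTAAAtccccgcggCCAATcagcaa
Cdc20: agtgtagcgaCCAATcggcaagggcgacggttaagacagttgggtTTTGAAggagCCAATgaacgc
Cenpa: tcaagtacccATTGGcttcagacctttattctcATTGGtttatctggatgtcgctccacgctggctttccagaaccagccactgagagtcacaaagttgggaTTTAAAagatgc
Of these stretches, Kif18b is chr11:102925110-102925187 (minus strand, base -63 to 15 from the start), Spag5 is chr11:78301561-78301605 (plus strand, base -30 to 15 from the start), Cdk1 is chr10:69352916-69353002 (minus strand, base -90 to -4 from the start), Ccnb1 is chr13:100786517-100786595 (minus strand, base -109 to -31 from the start). Further, Ccnb2 is chr9:70421540-70421651 (minus strand, base -97 to 15 from the start), Plk1 is chr7:122159336-122159431 (plus strand, base -99 to -4 from the start), Cdc20 is chr4:118437341-118437406 (minus strand, base -63 to 3 from the start), Cenpa is chr5:30666767-30666880 (plus strand, base -119 to -6 from the start). Base 1 is the first transcribed base by the RefSeq start and base -1 the one before it.

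TTTGAA was found in the promoters of 36 of the 47 genes (76.6%), against 20.2% of 27025 genes and 17.9% of the 32851 promoters in the table. CCAAT was found in 34 (72.3%), against 41.1% of genes and 37.4% of promoters, and both together in 30 (63.8%), against 7.97% of genes and 6.95% of promoters. TTTAAA was found in 10 (21.3%), against 14.9% of genes and 13.2% of promoters. The 86 further mitosis genes with an entry lay between for TTTGAA (34.9%) and CCAAT (59.3%). TTTAAA was found in 14% of them, below the share of all genes. In 32 of the 36 genes a TTTGAA match began within 50 bases of the start. Over the 49 RefSeq starts of the 47 genes, 44.9% had a TTTGAA match beginning in the 50 bases from the start on, against 2.25% of all promoters. CCAAT matches were most frequent in the 50 bases before the start (44.9% against 9.03%). In Cdk1, Ccnb1 and Ccnb2 a pair of CCAAT matches on the same strand stood 31 to 33 bases apart, as did those of Aurka, Hmmr and Spc25. That spacing was found in 6 of the 47 genes (12.8%) and in 0.918% of all genes, and was searched for after the sequences were seen. For the genes with a TTTGAA match the median log2 fold change with ODN was 1.87 (36 genes), and for those without one it was 1.85 (11 genes). With a CCAAT match it was 1.91 (34 genes), and without one 1.63 (13 genes). A match describes the letters only, and binding was not measured. RefSeq and GENCODE starts lay more than 400 bases apart for Kif2c, Cdca8, Kif14, Cdca3 and Cenpm, so the windows of these 5 genes may not be the promoters used here. Smaller gaps also shift the positions, among them 328 bases for Kif4, 169 for Mad2l1, 109 for Cenpa, 84 for Ccnb1 and 62 for Spag5. By the GENCODE starts, the printed stretch of Spag5 and most of that of Cenpa lie inside the gene. All positions given here therefore hold for the RefSeq start only.

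**Figure D4:**
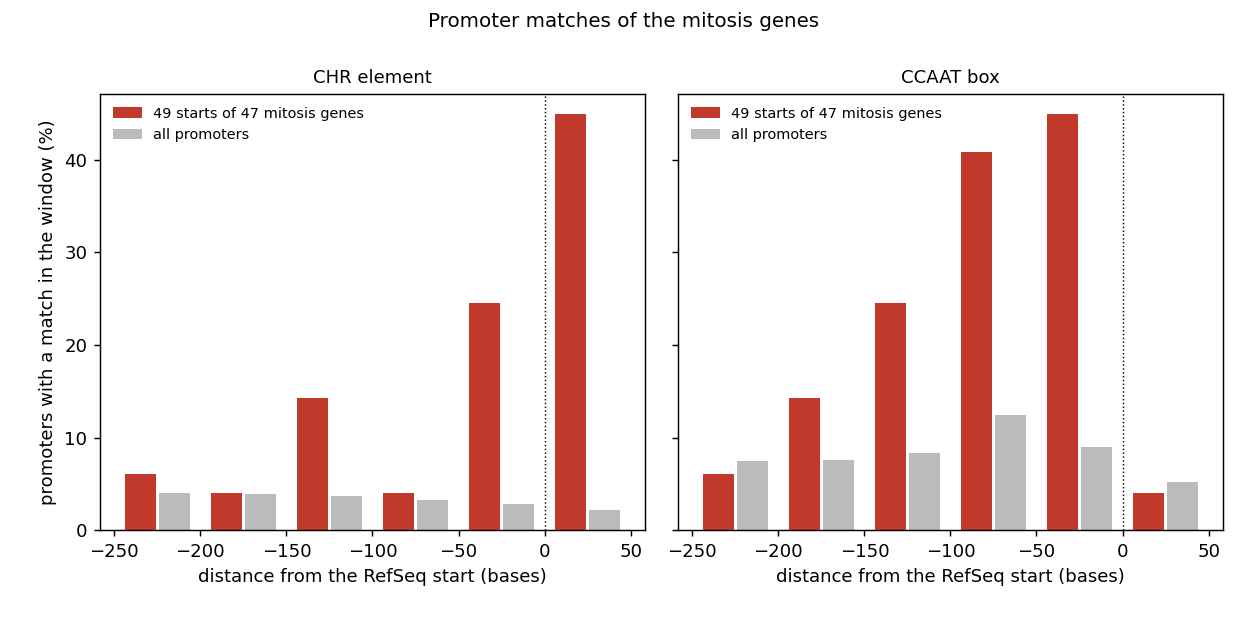
Share of promoters (vertical axis, percent) with a match to the CHR element (TTTGAA) or the CCAAT box that begins in each window of 50 bases, by distance from the RefSeq start; red bars are the 49 starts of the 47 mitosis genes, grey bars all 32851 promoters. CHR matches of the mitosis genes gather on both sides of the start (24.5% before it and 44.9% after it), and CCAAT matches in the 100 bases before it.

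With IM156 alone, most mitosis genes were fitted slightly below control, and no gene was called. By edgeR none of the 58 passed an adjusted p of 0.05, as was true of all genes tested (0% called lower), and DESeq2 called none either. At an unadjusted p below 0.05, 2 of the 58 were lower, against 1.91% of all genes, namely Anln at -1.51 ± 0.56 and Ncapg, a condensin subunit, at -0.87 ± 0.35. Fitted values were below 0 for 52 of the 58, with a median log2 fold change of -0.40, beside 0.00 over all genes. The median was -0.61 without control replicate 2 and -0.21 without control replicate 3. In 10 genes every IM156 library lay below every control (5.25% of all genes), Anln and Ncapg among them. The summed level was 1432, 1317 and 1157 CPM in IM156 replicates 1 to 3. Replicate 3 was the lowest for 42 of the genes, and control replicate 2 the lowest control for 49.

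With IM156 present, ODN still came with higher levels of mitosis genes. Against IM156 alone, 23 of the 58 were called higher with ODN+IM156, where 1.74% of all genes were, and in 51 the groups did not overlap (12.8% of all genes). The median log2 fold change was 1.30. By role, calls fell on 6 of 9 in the cyclin and kinase role, 5 of 10 kinesins and all 4 genes of spindle assembly. Also called were 4 of 10 of condensation and cohesion, 2 of 10 kinetochore genes, Birc5 of the passenger complex and Anln. None of the 6 genes of the checkpoint and anaphase role or the 2 transcription factors was called. Top2a (chr11:98992943-99024189), the topoisomerase that disentangles sister DNA, had the lowest adjusted p, 0.0107 by edgeR. It stood at 88.2, 69.5 and 52.8 CPM in IM156 and 159, 264 and 232 in ODN+IM156, with a log2 fold change of 1.64 ± 0.34. Anln had the highest fold change, 2.45 ± 0.54 (edgeR adjusted p = 0.0182), over IM156 libraries of 5 to 15 counts. The number called hung on single libraries. Leaving out control replicate 1 gave 12, ODN replicate 1 gave 42 and ODN replicate 3 gave 39, although none of these is in the comparison and they enter through the shared spread, the scaling and the filter. Leaving out IM156 replicate 1 gave 3 and IM156 replicate 2 gave 1, and leaving out IM156 replicate 3 or either of ODN+IM156 replicates 2 and 3 gave 0, against 18 without ODN+IM156 replicate 1. The robust fit called 1 gene, DESeq2 14, and a fit of the 2 groups alone 52. Over all genes, these fits called 1.43%, 2.19% and 5.13% higher. With 1 library left out, the share of all genes called higher ran from 0.712% (without IM156 replicate 3) to 3.21% (without ODN replicate 1). With all 12 libraries the fitted value was above 0 for each of the 58 genes.

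Against untreated control, ODN+IM156 was fitted higher for all 58 genes, with a median log2 fold change of 0.86, yet none was called. At an unadjusted p below 0.05, 32 of the 58 were higher, against 7.46% of all genes, and 1.25% of all genes passed the adjusted threshold. In 36 genes the groups did not overlap, a separation found in 10.2% of all genes. DESeq2 called 1 gene, where 1.81% of all genes were called higher. Cdk1 had the lowest adjusted p, 0.0657 by edgeR, with 26.1, 42.6 and 30.8 CPM in ODN+IM156 and a log2 fold change of 1.17 ± 0.31. Pbk had the highest value, 1.56 ± 0.47. Without ODN replicate 1, a library outside this comparison that adds to the shared estimate of spread, 20 genes were called, and 24 were in a fit of the 2 groups alone. Leaving out ODN replicate 3 gave 7, and leaving out control replicate 3 gave 2. Of all genes, 2.2% were called higher without ODN replicate 1 and 2.62% in the fit of the 2 groups. The share was 1.74% without ODN replicate 3 and 0.92% without control replicate 3.

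For ODN+IM156 against ODN, the size of the difference and the number of calls depended on which ODN libraries were used. With all libraries the 58 genes were fitted lower in ODN+IM156 than in ODN without exception, with a median log2 fold change of -1.003, beside -0.01 over all genes, and a range from -1.58 for Nuf2 to -0.36 for Kif20b. None was called by edgeR, the lowest adjusted p being 0.0622 for Cdk1, and 0.0169% of all genes were called lower. DESeq2 called 4 lower, where 251 of the 8453 genes with an adjusted p were, and gave no adjusted p for 11. At an unadjusted p below 0.05, 52 were lower, against 9.44% of all genes, but only Bub1 and Mad2l1 had groups that did not overlap, where 10% of all genes had. The summed level was 1775, 2526 and 2329 CPM in ODN+IM156 replicates 1 to 3, so that the 6385 CPM of ODN replicate 1 and the 3169 of replicate 2 lay above them and the 2235 of replicate 3 lay among them. ODN replicate 2 was above every ODN+IM156 library in 52 genes, and ODN replicate 3 in 2.

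Without ODN replicate 1 the median was -0.30, no gene was called, and the fitted value of Incenp (0.21) and Anln (0.11) turned positive. Without ODN replicate 3 the median was -1.36 and 51 of the 58 were called lower, where 527 of 12083 genes tested were. The plot of fold changes by library set shows this shift for the 58 mitosis genes. Over all genes tested the median was -0.008 with all libraries, 0.001 without ODN replicate 1 and 0.006 without ODN replicate 3. Both of these libraries stand apart in genes outside this list, replicate 1 in the neutrophil markers and Cr2, and replicate 3 in Xist, and the part of either in the comparison was not tested.

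**Figure D5:**
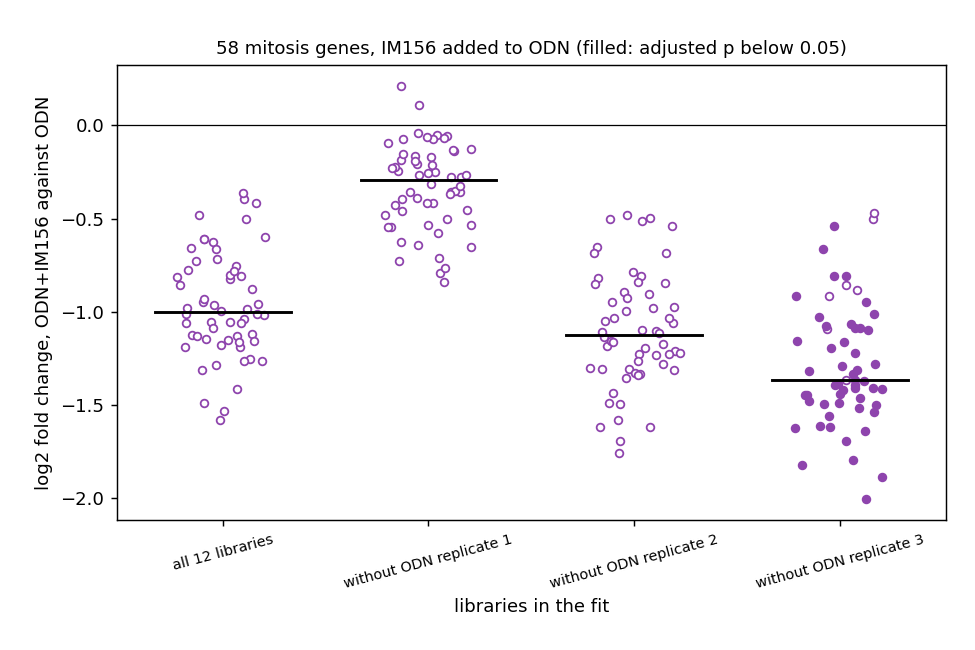
Log2 fold change of ODN+IM156 against ODN for the 58 genes (points), fitted with all 12 libraries and without each ODN library in turn; the bar is the median and filled points had an edgeR adjusted p below 0.05. The median is -1.003 with all libraries, -0.30 without ODN replicate 1 and -1.36 without ODN replicate 3.

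The interaction is the log2 fold change of IM156 among ODN-treated samples less that among samples with no ODN, and asks whether the effect of the drug differs between them. By edgeR no mitosis gene was called (0% of all genes). At an unadjusted p below 0.05, 4 of the 58 (6.9%) were lower, nearly the share of all genes (6.86%). This count therefore does not set the mitosis genes apart. The 4 were Cdk1 at -1.02 ± 0.43, Spag5 at -1.30 ± 0.55, Kif22, a kinesin of chromosome arms, at -1.14 ± 0.51, and Smc2 at -0.63 ± 0.26. DESeq2 gave no adjusted p for 47 of the 58 and called none of the rest. The fitted value was negative for 57 genes, Anln being the exception at 1.01 ± 0.72, and the median was -0.59. Without ODN replicate 1 the median was 0.0126, and without ODN replicate 3 it was -0.87 with 3 genes called. In the latter fit, 98 of 12083 genes were called higher and 162 lower.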

How the data were processed

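The deposited table gives raw read counts per gene symbol for 12 libraries (unit: counts). Per the submitters' processing notes, Bowtie2, bedtools and edgeR were used with GRCm38 (mm10); versions, annotation and strand rule are not given in the sources used here. The table's 12 normalized, 4 average and 12 comparison columns were not used, and 5883 of 23282 rows had no count.

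The counts went into edgeR 4.0.16 (R 4.3.3), with filterByExpr (11857 genes), TMM scaling, and a quasi-likelihood fit with 1 mean per group over all 12 libraries (8 residual degrees of freedom), so all groups share 1 spread per gene. Tests were two-sided, with Benjamini-Hochberg adjustment over all genes tested in a comparison. Levels are CPM of the scaled library, and errors of fold changes are standard errors of the fit. The pipeline was checked on simulated data. Alternatives were DESeq2 1.42.0, other scalings and filters, a robust fit, fits of the groups compared, a replicate block and each library left out.

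The 58 genes, the further lists and the markers were chosen with earlier results of these data known. By rule, the genes of largest and smallest fold change with ODN in each of 9 roles are given library by library, and from each further list up to 3 called genes of largest change. Cdk1, Top2a, Espl1 and Cdca5 were added after their values were seen. Positions are from GENCODE (GRCm38), promoters from RefSeq. Replicates of a group differed by more than counting error, so none was treated as a repeat deposit. The chi-square per degree of freedom, a ratio of variances, was 5.35 to 72.6, with the ribosomal RNA row included.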

Additional observations from a re-analysis of the deposited data

How the results depend on the processing

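The rise of the mitosis genes with ODN kept its direction for each of the 58 genes under all 20 alternatives, and 33 genes were called under each. The count called was 55 with DESeq2, 58 with no filter on low counts, 50 in a fit of the 2 groups alone, 36 with a robust fit, and 47 to 58 with 1 library left out. Over all genes, these fits called 7.7%, 6.03%, 4.28% and 6.87% higher, and 4.88% to 9.45% with 1 library left out. For IM156 against control 9 were called lower with no filter, where 35 of 17399 genes were. For ODN+IM156 against ODN the count called lower was 4 with DESeq2 (no adjusted p for 11), 54 with no filter and 0 to 51 with 1 library left out. Over all genes, 251 of 8453, 445 of 17399 and 1 to 527 were called lower. The log2 fold changes of Incenp (-0.89 to 0.21) and Anln (-0.91 to 0.11) reversed without ODN replicate 1. For ODN+IM156 against control the count was 1 with DESeq2, 42 with no filter, 24 in a fit of the 2 groups alone and 0 to 20 with 1 library left out. Over all genes, these called 1.81%, 2.31%, 2.62% and 0.571% to 2.2% higher. For ODN+IM156 against IM156 the count was 14 with DESeq2, 51 with no filter, 1 with a robust fit, 52 in a fit of the 2 groups alone and 0 to 42 with 1 library left out. Over all genes, these called 2.19%, 2.68%, 1.43%, 5.13% and 0.712% to 3.21% higher. For the interaction the count was 12 lower with no filter, where 172 of 17399 genes were, and 0 to 3 with 1 library left out. The median of the 58 genes ran from -0.87 to 0.0126, which is reversed. The cause of these shifts was not tested.

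Same-numbered samples did not deviate together (correlations of -0.103 to 0.0847 over 18 pairs, none over 0.1), so the numbers are not taken as pairs. With a replicate block 55 genes were called for ODN against control and 24 for ODN+IM156 against IM156, and 0 in the other comparisons. Of all genes, 6.77% were called higher for ODN against control and 1.83% for ODN+IM156 against IM156. Scaling by library totals alone left the median for ODN against control at 1.75.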
